A study of Mus musculus with 12 samples.

Results

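The captured promoter of Zfp423 was examined in mouse haematopoietic stem cells (HSCs) of fetal liver and adult bone marrow. It was taken as every listed contact whose promoter name, without the suffix that numbers alternative promoters, is Zfp423. This gave 1 gene of 3374, with 1 promoter entry of 3781 and 67 contacts of the 89545 in the deposited table. Zfp423 was chosen by its expression value of 0 in both populations and by its numbers of called contacts, which were much higher in fetal than in adult cells. These numbers and the counts behind them are therefore described here without a test.

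The method, promoter Capture-C, ligates DNA ends that lie close together in cross-linked chromatin cut with DpnII, and oligonucleotide probes then pull out the products of selected promoters. The series compared such contact maps between life stages and holds 12 samples. Fetal HSCs came from the livers of B6129SF1 embryos at embryonic day 14.5, and adult HSCs from the bone marrow of B6129SF1 mice aged 6 to 8 weeks. Both populations were sorted by the same surface markers, Lin-Sca1+cKit+CD135-, and no genetic change or treatment of these animals is labelled. Each population has 4 libraries, 2 in each of 2 capture batches. The other 4 samples, wild-type and TCF3KO HPC7 cells (a stem and progenitor line derived from embryonic stem cells, passages 13 to 20), were not analysed here. Zfp423 was captured in the first batch, which holds 1952 promoter entries and 49944 contacts. The deposited table has 1 value per population and batch, so that no value below has a replicate error. Whether libraries came from separate animals is not given in the sources used here. Summed over the listed first-batch contacts, the fetal count was 1312829 and the adult count 1098957, which are totals of listed contacts and not library depths.

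Zfp423 encodes a transcription factor with many C2H2 zinc fingers. It binds EBF factors, the regulators of B cell, fat cell and olfactory neuron development, and it also works with the SMAD proteins of BMP signalling, with the Notch intracellular domain and with retinoic acid receptors. It is best known from preadipocytes, where it acts upstream of Pparg, and from the cerebellum and the midline of the brain, which form abnormally without it. Promoters can touch distal DNA whether or not they are transcribed, and contact maps also record how the chromatin around a gene is folded.

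The captured fragment lies on chromosome 8, from 90327190 to 90327869 of the mm9 build, and is 680 bp long. RefSeq places Zfp423 on the minus strand in a gene of 300 kb (GRCm38.p6). The RefSeq promoter windows used here cover 2 starts 155 kb apart, and the gene model reaches 2.46 kb upstream of the outer one. The 250 bases before each of these starts are shown, because the sources used here do not settle which start, if either, the captured fragment holds. The fragment is given in mm9 and the windows in GRCm38.p6, and no position was converted between the builds. CpG dinucleotides are in capitals, and the windows lie at chr8:87959596-87959845 and chr8:87804440-87804689, both on the minus strand and written 5′ to 3′.
outer start: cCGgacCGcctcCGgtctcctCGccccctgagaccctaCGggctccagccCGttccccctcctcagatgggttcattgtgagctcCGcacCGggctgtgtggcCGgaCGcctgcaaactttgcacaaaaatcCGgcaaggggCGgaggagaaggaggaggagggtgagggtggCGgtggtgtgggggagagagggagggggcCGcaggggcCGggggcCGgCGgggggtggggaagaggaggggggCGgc
inner start: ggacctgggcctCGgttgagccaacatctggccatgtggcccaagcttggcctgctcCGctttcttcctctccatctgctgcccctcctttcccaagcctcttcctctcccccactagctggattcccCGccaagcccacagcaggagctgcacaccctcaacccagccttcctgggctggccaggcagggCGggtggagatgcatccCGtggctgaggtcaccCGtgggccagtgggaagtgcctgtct
The outer window holds 18 CpG dinucleotides at a GC content of 71.6%, and 21.7% of all 32851 RefSeq windows hold as many or more. The inner window holds 6 at a GC content of 64.8%, and 50.4% of all windows hold as many or more, the median window having 6 at 52.4% GC. The letters GGGCGG, searched on both strands, occur 2 times in the outer and 1 time in the inner window, and in 32.7% of all windows. Neither window holds CCAAT (33.8% of windows), TATAAA (12.4%) or GATC, the DpnII site (41.9%). These matches describe letters in short windows and say nothing of bound factors.

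Zfp423 was listed at 0 FPKM in fetal and at 0 FPKM in adult HSCs, and the authors' table does not mark it as differentially expressed. The deposited FPKM belongs to a promoter and its transcript. Of 326 genes with several first-batch promoters, 325 had fetal FPKM values that differ between them. The 0 was therefore read as that of the captured promoter's transcript, and no value for any other Zfp423 start is given here. The labelled cell type was checked on markers at each gene's highest promoter. The 9 captured HSC and progenitor markers, of 10, ranged from 10.3 to 36.3 FPKM in fetal and from 8.94 to 62.5 FPKM in adult cells. Only 2 of the 9 were higher in fetal cells (summed 212 against 332 FPKM). All 4 captured erythroid markers of 5 were higher in fetal cells (summed 38.1 against 2.74 FPKM), as were all 5 granulocyte and macrophage markers (72.1 against 3.89 FPKM). Of 4 stroma and endothelium markers 2 were listed (summed 8.36 against 7.91 FPKM). Cdh5, an endothelial cadherin, was at 2.53 against 0.00611 FPKM. Pecam1, an endothelial and blood cell adhesion gene, was at 5.82 against 7.90 FPKM. Flt3, the gene of the CD135 antigen sorted against, had 6.20 and 3.81 FPKM. Markers of B cells, T cells and hepatoblasts had no listed promoter and were not analysed here. Promoters are listed only with a called contact, so a promoter captured without a call cannot be told from one not captured. In such bulk samples fewer cells of a type and less RNA per cell cannot be told apart, and the part of these cells in the Zfp423 contacts was not tested.

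The promoter had 57 called contacts in fetal HSCs and 14 in adult HSCs, a log2 ratio of 1.95 after adding 1 to each side. A contact is a bin of 2 kb, and it was taken as called in a population where its deposited score was above 0. The score has the form of a −log10 p-value. Of the 67 listed bins 53 were fetal-specific (79.1%, against 38.9% of all listed first-batch contacts), 10 were adult-specific (14.9%, against 35.4%) and 4 were shared (5.97%, against 25.7%). More fetal than adult calls were also found at 48.1% of the first-batch promoters. The selection of Zfp423 used these numbers, and nothing is read from them.

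The fetal number placed Zfp423 high and the adult number near the middle of the batch. The median first-batch promoter had 11 fetal and 10 adult calls. Only 71 of 1952 promoters, Zfp423 included, had at least as many fetal calls, while 811 had at least as many adult calls. Among the 1030 promoters with at least 20 calls in total, 3 including Zfp423 had a log2 ratio as high, and the median was 0.07. The other 63 promoters with 50 to 64 fetal calls, a range set after the values were seen, had 25 to 75 adult calls with a median of 51. The lowest of these was Baz2b with 57 fetal and 25 adult calls. The other 217 promoters with 12 to 16 adult calls had 3 to 42 fetal calls with a median of 13.

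**Figure D1:**
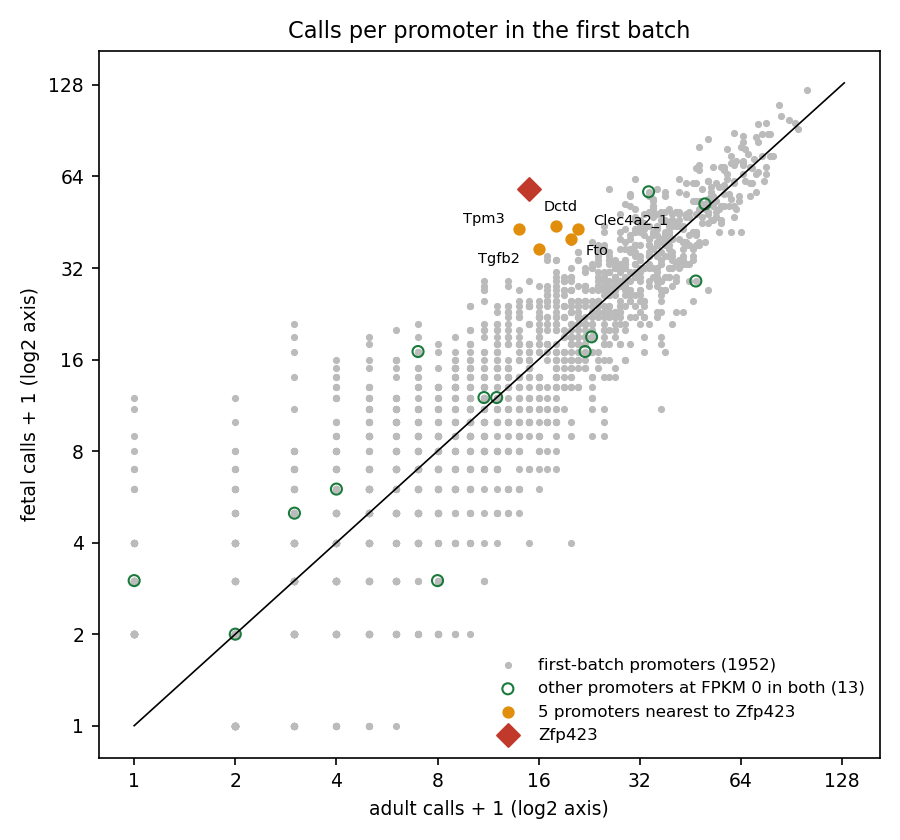
Fetal calls against adult calls of the 1952 first-batch promoters, each plus 1, on log2 axes, with the line of equal numbers. Zfp423 (57 fetal and 14 adult calls) lies above the cloud of grey points, the 5 promoters nearest to it are named, and the 13 other promoters at 0 FPKM in both populations scatter around the line.

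The promoters nearest to Zfp423 in this plane were found by straight-line distance over log2(fetal calls + 1) and log2(adult calls + 1). Tpm3, a tropomyosin of the actin cytoskeleton, was the nearest with 42 fetal and 13 adult calls. Dctd, a deoxycytidylate deaminase, had 43 and 17 calls, and Clec4a2_1, an alternative promoter of a C-type lectin gene, had 42 and 20. Tgfb2, a TGF-beta ligand, had 36 and 15 calls, and Fto, an RNA demethylase, had 39 and 19. Their fetal FPKM ran from 0.0222 (Tgfb2) to 116 (Tpm3), and Zfp423 was the only one of the 6 at 0 in both populations. Tpm3 shared 28.6% of its fetal calls with adult cells, while Fto shared 5.13%, below the 7.02% of Zfp423.

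Counts behind the Zfp423 contacts were small. The 67 bins summed to 734 fetal and 402 adult counts, a ratio of 1.83 (exact 95% interval 1.61 to 2.07, which covers counting error only). The same ratio was 1.19 over all listed first-batch contacts. After scaling by those totals the Zfp423 ratio was 1.53, and scaling by contacts within a chromosome gave 1.55. Of the 1030 promoters with at least 20 calls 24 had a count ratio as high. The median over the 1030 was 1.09, and the 5th to 95th percentile range was 0.830 to 1.48. Of the 67 Zfp423 bins 53 were listed through a fetal call only, and the choice of Zfp423 used these calls. Its high ratio and place are therefore largely set by that choice. Per bin the fetal count ran from 4 to 44 with a median of 10, and the adult count from 0 to 25 with a median of 6. The fetal count was higher in 55 bins, equal in 2 and lower in 10. It was at least 2 times the adult count in 38 of 67 bins (24.5% of all listed contacts), and the reverse held in 4 (17.1%).

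The classes differed in counts as their definition requires. The 53 fetal-specific bins had 7 to 44 fetal counts (median 10) and 0 to 25 adult counts (median 4), in all 639 against 274. Their summed ratio of 2.33 compares with 2.09 over all fetal-specific contacts of the batch. Single bins were imprecise, since only 11 of the 53 had a 95% interval of the ratio wholly above 1. The 10 adult-specific bins had 4 to 8 fetal counts (median 6) and 8 to 15 adult counts (median 8.5). They summed to 59 against 94, a ratio of 0.628, and 0 of the 10 had an interval wholly below 1. The 4 shared bins had fetal and adult counts of 9 and 8, 9 and 8, 10 and 10, and 8 and 8. Their ratio was 1.06 (0.644 to 1.74), an interval that includes equality. Over all shared contacts of the batch the ratio was 1.33, and 1.15 at 100 to 300 kb from the promoter.

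**Figure D2:**
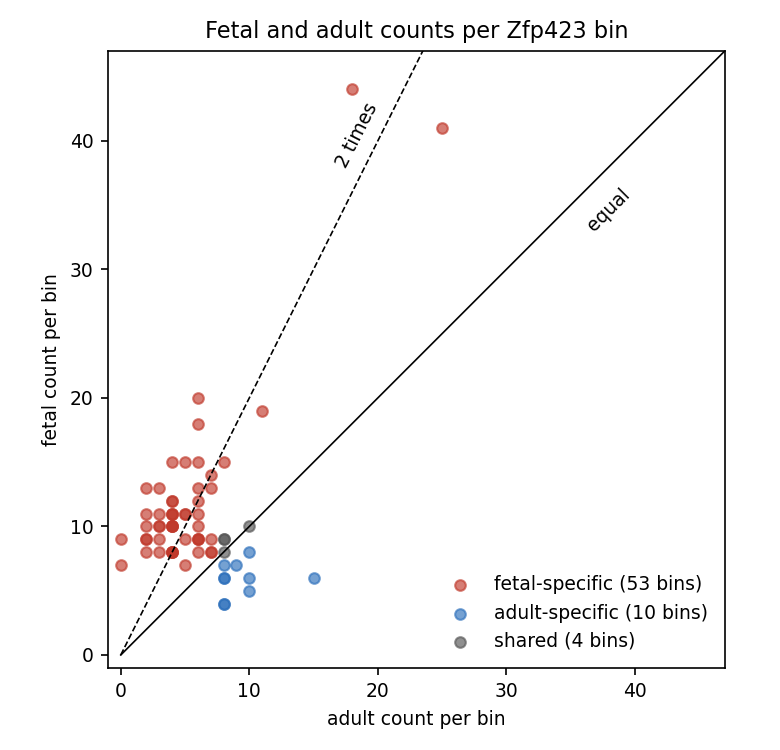
Fetal against adult count of each of the 67 listed Zfp423 bins of 2 kb, coloured by class, with lines of equal counts and of a fetal count 2 times the adult count. The 53 fetal-specific bins lie above the line of equality, 38 of all bins at or above the line of 2 times, and the 4 shared bins at or just above equality.

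Some bins not called in adult cells lay close to the calling limit. Beyond 100 kb from the promoter the lowest count called was 7 in fetal and 8 in adult cells. The highest fetal count not called there was 8, in an adult-specific bin, so that class also reached the limit. Of 47 fetal-specific bins there, 5 had an adult count of 7, 1 below the lowest adult count called, and 28 had an adult count of 4 or lower. The fetal scores had a median of 2.07, from 1.40 to 5.52, above a floor of 1.3 in this batch. The adult scores had a median of 1.58, from 1.46 to 3.08. Within 1 unit of the floor lay 38 of 57 fetal calls (66.7%, 52.9 to 78.6; batch 58.8%). For the adult calls this held for 11 of 14 (78.6%; batch 55.4%). With the score raised by 1 unit, Zfp423 kept 19 fetal and 3 adult calls. The log2 ratio was then 2.32, and none of the 19 was also called in adult cells.

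Few Zfp423 contacts coincided between the stages. The 4 shared bins made up 7.02% of fetal calls, with an exact Clopper-Pearson 95% interval of 1.95 to 17.0. They made up 28.6% of the adult calls (8.39 to 58.1). Over the first batch the shares were 39.8% and 42.1%. With 14 adult and 57 fetal calls, the numbers that chose Zfp423, the share of fetal calls could not exceed 24.6%, so its low place among promoters is largely set by that choice. Among the 618 promoters with at least 20 fetal calls 8, Zfp423 included, had a shared share of fetal calls this low, with a median of 41.7%. The 63 promoters with like fetal numbers had a median of 47.2% and a minimum of 17.5%. The bins of both stages lay in overlapping stretches of the chromosome. An adult call lay within 5 kb of 18 of 57 fetal calls and within 20 kb of 47. A fetal call lay within 5 kb of 11 of 14 adult calls and within 20 kb of all 14. Such near matches depend on the numbers of calls, which chose Zfp423. The same was not computed for other promoters, so nothing is read from them.

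The contacts lay at a limited range of distances on both sides of the promoter. The median distance of the fetal calls was 181 kb (95% interval from the ranked distances 157 to 199), close to the 178 kb of the batch, and that of the adult calls was 201 kb (127 to 213), against 153 kb. At 100 to 300 kb, limits set after the values were seen, lay 49 of 57 fetal calls (86.0%, batch 57.5%) and 12 of 14 adult calls (85.7%, batch 51.4%). The fetal calls reached from 89692001 to 90620001 and the adult calls from 90114001 to 90580001. Within 60 kb of the promoter there were 2 fetal calls and 0 adult calls. On the side of lower coordinates, which is the direction of transcription, lay 36 fetal and 7 adult calls with 475 and 263 counts (ratio 1.81, 1.55 to 2.11). On the higher side lay 21 fetal and 7 adult calls with 259 and 139 counts (1.86, 1.51 to 2.31). These ratios rest on bins that were listed because they were called, mostly in fetal cells, and give no size of a difference beyond the listed bins.

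**Figure D3:**
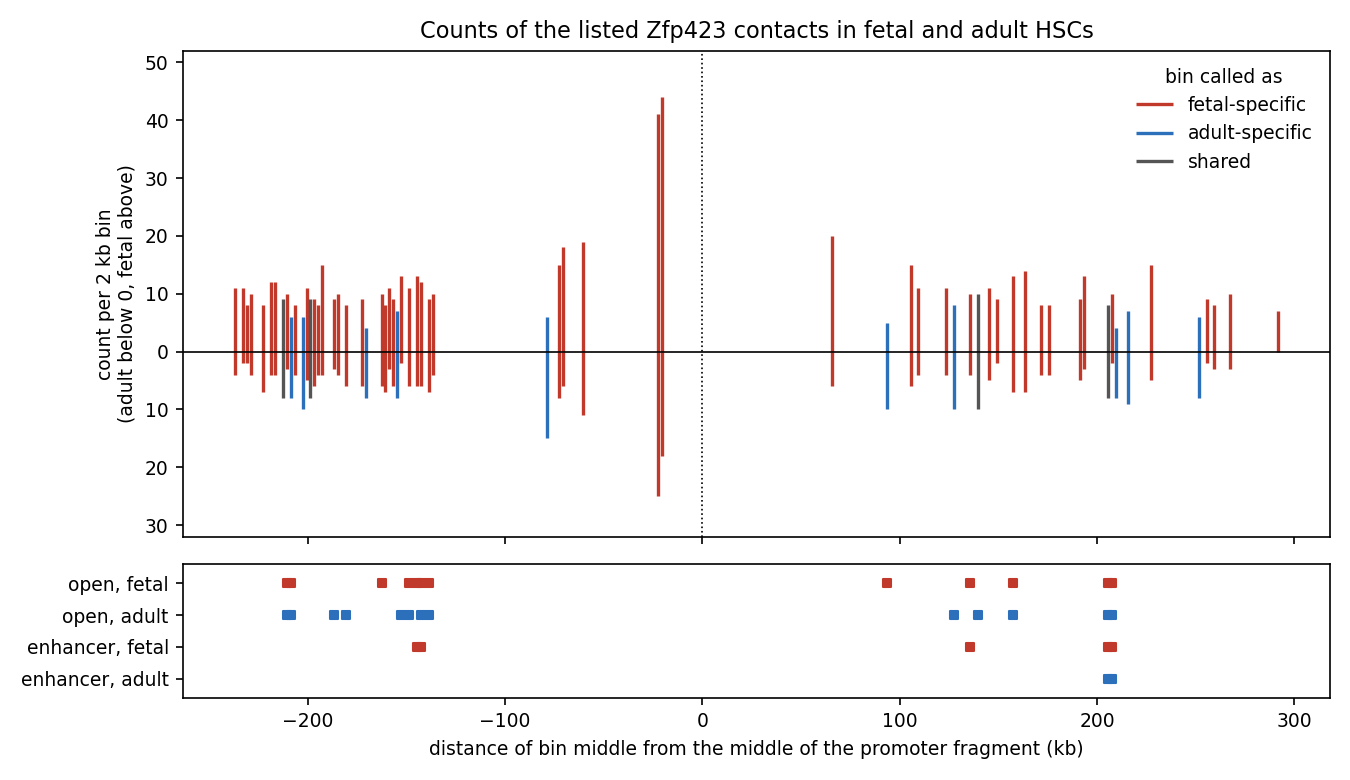
Counts per 2 kb bin of the listed Zfp423 contacts by distance from the promoter fragment in kb (upper panel, fetal above and adult below 0, coloured by class), and the bins marked open or active enhancer in either population (lower panel). The 33 bins of the lower group stand at 137 to 237 kb on the left and 26 more sparse bins at 65.5 to 291 kb on the right, while 2 single fetal bins farther to the left are outside the plotted range.

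Joining bins no more than 30 kb apart, a limit set after the values were seen, gave 6 groups. The densest covered 102 kb, from 90090001 to 90192001, at 137 to 237 kb on the lower side. Of its 51 bins 29 were fetal calls (56.9%) and 6 adult calls, 2 of them the same bins. Its 33 listed bins had 4 to 15 fetal counts (median 9) and 2 to 10 adult counts (median 6), in all 316 against 175, a ratio of 1.81 (1.5 to 2.18). The fetal count was higher in 29 of these 33 bins. Most of the 33 were listed through a fetal call only, so the ratio and this number largely follow from the choice of Zfp423. The group on the higher side, from 90392001 to 90620001, was 228 kb long and more sparse. There 21 of 114 bins were called in fetal cells (18.4%), 7 in adult cells and 2 in both, with 259 against 139 counts.

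Close to the promoter, a pair of touching bins from 90304001 to 90308001, 20.5 and 22.5 kb away, held the highest counts. They had 41 fetal and 25 adult counts, and 44 and 18, a joint ratio of 1.98 (1.35 to 2.92). Both were listed through a fetal call only. Their fetal scores were 1.72 and 1.73, below those of many distant bins with fewer counts. Between this pair and the dense group, 4 bins from 90248001 to 90268001 had 58 against 40 counts (1.45, 0.953 to 2.23), and the interval includes equality. The best-scored adult contact of Zfp423 was among them, at -78.5 kb (lower side negative), with 6 fetal and 15 adult counts and a score of 3.08. Its ratio of 0.400 had an interval of 0.127 to 1.09. Far from the promoter on the lower side stood 2 single fetal bins, at 89692001 with 7 fetal and 5 adult counts and at 89846001 with 9 and 0. With an adult count of 0 the latter bin has no finite ratio, and the exact interval of its ratio started at 1.97 without an upper limit.

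The best-scored fetal contacts lay on both sides. The bin at 90554001, at 227 kb, had 15 fetal and 5 adult counts and a score of 5.52 (ratio 3.00, 1.04 to 10.6). The bin at 90134001, at -193 kb, had 15 and 4 counts and a score of 5.32 (ratio 3.75, 1.19 to 15.5). Next came 90490001 at 163 kb with 14 and 7 counts and a score of 4.42 (ratio 2.0, 0.755 to 5.86). The bin at 90520001, at 193 kb, had 13 and 3 counts and a score of 3.94 (ratio 4.33, 1.19 to 23.7). The bin at 90484001, at 157 kb, had 13 and 7 counts and a score of 3.70 (ratio 1.86, 0.689 to 5.5). The bin at 90174001, at -153 kb, had 13 and 2 counts and a score of 3.67 (ratio 6.50, 1.47 to 59.3). The wide intervals show how little a single bin of this size fixes.

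Adjacent bins are not independent contacts, so runs of touching bins were counted as well. The 57 fetal calls formed 39 runs, of which 27 were single bins, 9 had 2 bins, and 1 each had 3, 4 and 5. The longest, from 90126001 to 90136001, held the bin at -193 kb just described. In runs of at least 2 bins lay 30 of 57 fetal calls (52.6%, batch 46.4%), and the 63 promoters of like fetal number had a median of 60% (26.8 to 92.2). The 14 adult calls were all single bins. Over the batch 47.6% of adult calls lay in runs, and of the 217 promoters of like adult number 22 also had no adult run. With 1 call per run, Zfp423 had 39 fetal against 14 adult contacts, a log2 ratio of 1.42.

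Most bins that the Zfp423 promoter touched carried no mark. The authors' table marks each bin as active or bivalent promoter, as active, poised or primed enhancer and as open chromatin (ATAC) in each population, from assays that the choice of Zfp423 did not use. No mark in either population was listed at 43 of 57 fetal calls (75.4%, 62.2 to 85.9). The share was 38.3% over all fetal calls of the batch, and 40.9% for those at 100 to 300 kb. The 13 other promoters at 0 FPKM had 54.3% (47.5 to 61.0), pooled over 221 fetal calls. Of these calls 56 came from Tbx3, 51 from Cxcl1 and 28 from Cxcl2, so the pooled shares describe mainly these promoters. Of the 618 promoters with at least 20 fetal calls 3 had a share as high, Adam12 (79.2%), Plekhg1 (78.6%) and Zfp423, and the median was 38.5%. Of the promoters nearest to Zfp423 in numbers of calls, Fto had 69.2% and Dctd 65.1%, both inside its interval, Tgfb2 55.6%, Clec4a2_1 42.9% and Tpm3 33.3%. Of the 14 adult calls 9 carried no mark (64.3%, 35.1 to 87.2; batch 34.8%). The intervals treat bins as independent, which touching bins are not, and no test across promoters was made. Neither here nor for the single marks below were the compared calls matched for class or score. Of the 57 Zfp423 fetal calls 53 were fetal-specific, a mix that the choice by calls largely set.

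Open chromatin was the most frequent mark. It was listed in fetal cells at 10 of 57 fetal calls (17.5%, 8.75 to 29.9), against 53.0% over the batch and 34.4% (28.1 to 41.1) at the other silent promoters. Of these 10 bins 7 were open in adult cells too and 3 in fetal cells only, and 4 more fetal calls were open in adult cells only. Of the 14 adult calls 4 were open in adult cells (28.6%, 8.39 to 58.1; batch 54.6%). Active promoters were not among the fetal calls, 0 of 57. A count of 0 allows a share of up to 5.26% by 3 counts of the total, and the exact 95% interval reaches 6.27%. That mark was on 15.6% of fetal calls of the batch, on 13.4% of those at 100 to 300 kb and on 0.905% at the other silent promoters. No fetal call carried a bivalent, poised or primed mark of fetal cells. These marks were rare over the batch, on 1.52%, 0.713% and 1.77% of fetal calls. Each of these shares lies inside the interval that a count of 0 of 57 allows.

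**Figure D4:**
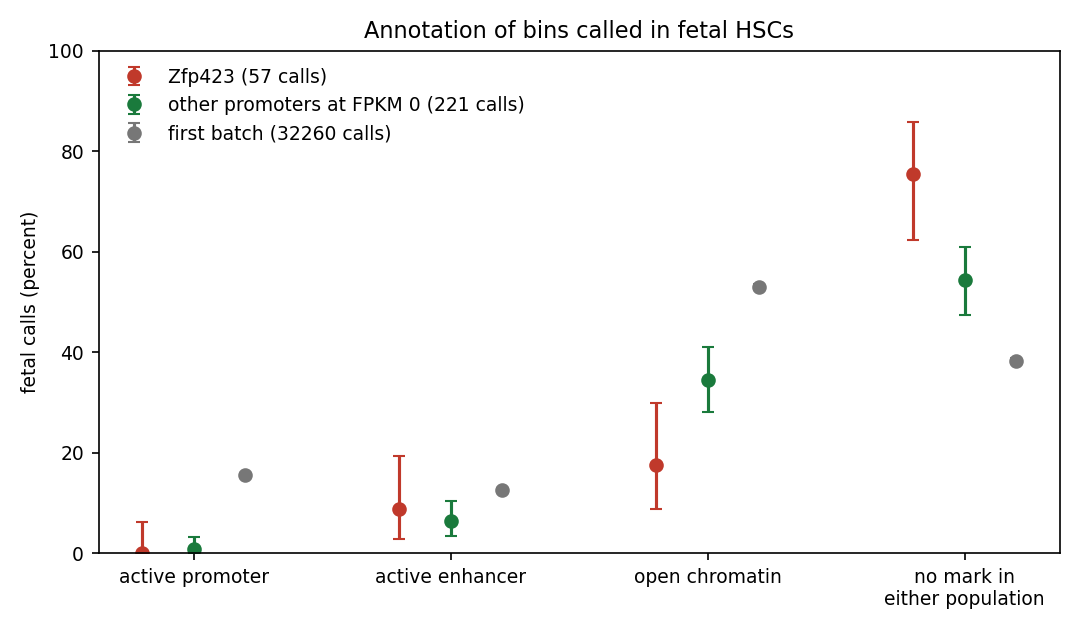
Percent of fetal calls at bins with each mark for Zfp423 (57 calls), the 13 other promoters at 0 FPKM in both populations (221 calls) and the whole first batch (32260 calls), with exact 95% intervals that cover counting error only. Zfp423 had 17.5% of its fetal calls at open chromatin against 53.0% in the batch, and 75.4% without any mark against 38.3%.

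Active enhancers were contacted at 5 of 57 fetal calls (8.77%, 2.91 to 19.3), a share near the 12.7% of the batch and the 6.33% of the other silent promoters. A pair of touching bins at 90182001 and 90184001, at -145 and -143 kb, had 13 fetal and 6 adult counts, and 12 and 6. A bin at 90462001, at 135 kb, had 10 and 4 counts. All 3 were marked as enhancers in fetal cells only, and each was called in fetal cells only. Of all 57 fetal calls 53 were fetal-specific, largely through the choice of Zfp423, so nothing is read from this match. The batch share of enhancer marks in fetal cells only was not computed. A second pair at 90532001 and 90534001, at 205 and 207 kb, was marked as enhancer in both populations. Its bins had 8 and 8 counts and 10 and 2 counts, and the former was called at both stages, the latter in fetal cells only. The bin at 90178001, at -149 kb, carried a bivalent promoter mark in adult cells only, with 11 fetal and 6 adult counts.

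No other captured promoter was listed at any of the 67 bins. Of the 1030 first-batch promoters with at least 20 calls 57 (5.53%) likewise shared no bin. The nearest listed promoter was that of Cyld, a deubiquitinase that restrains NF-kappaB signalling, 894 kb away on the higher side. It was the only 1 listed within 2 Mb. Cyld was captured in the second batch and had 25 fetal and 26 adult calls, the first of them 100 kb past the last Zfp423 bin. In RefSeq (GRCm38.p6) the nearest gene lies 72.6 kb below Zfp423 (4933402J07Rik) and 157 kb above it (Cnep1r1, a subunit of a nuclear envelope phosphatase). The outer start lies 298 kb and the inner start 143 kb from the end of the gene. Distances within each build were compared for each possible start. If the fragment is the outer start, 34 of 36 fetal and 7 of 7 adult calls on the lower side are nearer than the gene's end. If it is the inner start, 8 of 36 and 1 of 7 are, and 8 of 21 fetal calls on the higher side are nearer than the outer start.

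Other promoters at 0 FPKM showed no common direction. In the first batch 14 promoters were listed at 0 FPKM in both populations. Of the 13 besides Zfp423, 7 had more fetal calls, 4 more adult calls and 2 equal numbers. Over all first-batch promoters 48.1% had more fetal calls. Igfbp2 is among the 13 with more than 1 promoter, so they are not all separate genes. Their medians were 11 fetal and 10 adult calls, and their log2 ratios ran from -1.42 to 1.58 with a median of 0.06. Tbx3, a T-box factor of limb and heart development, was nearest in fetal number with 56 fetal and 33 adult calls, 10 of them shared. The neutrophil chemokine genes Cxcl1 and Cxcl2 had 51 and 49, and 28 and 46 calls. Hand1, a heart and trophoblast factor, had 18 and 22. E130006D01Rik had 16 fetal and 6 adult calls with 1 shared, a shared share of 6.25% like that of Zfp423. Count ratios of the 13 ran from 0.567 to 1.95 with a median of 1.22. Only Cxcl2, at 1.95 and with more adult than fetal calls, was above the 1.83 of Zfp423. The next was Igfbp2 at 1.70.

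Partners of Zfp423 were looked up from a list of 35 genes. It covers its paralogue Zfp521, the EBF factors, BMP, Notch and retinoid signalling and fat cell regulation. Of these genes 14 were listed, with 18 promoters in both batches together. The others, Zfp521 and the EBF genes among them, had no listed promoter and were not analysed here. More fetal calls were listed at 9 of the 18 promoters, near the 49.1% of all promoter entries of both batches, more adult calls at 7 and equal numbers at 2. The median log2 ratio was 0.13, against 0.00 over all promoters, and the range was -1.58 to 1.0. Rbpj, the DNA-binding effector of Notch, had 40 fetal and 29 adult calls. Rxra, the retinoid X receptor, had 41 and 30, 17 and 12, and 38 and 43 calls at its 3 promoters. Prdm16, a regulator of brown fat and of stem cells, had 39 and 39. Among BMP genes, the targets Id1, Id2 and Id3 had 11 and 15, 4 and 2, and 21 and 26 calls, and the receptor gene Bmpr2 had 0 and 2. Of the SMAD genes, which carry the BMP signal, Smad1 had 3 and 3 calls and Smad5 had 5 and 4. Smad4 had 4 and 2 at one promoter and 13 and 17 at another, and the inhibitor gene Smad6 had 3 and 4.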

How the data were processed

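Promoter Capture-C of fetal and adult HSCs was analysed from 1 deposited table. Per the submitters' processing notes, Trim Galore 0.41, Bowtie2 2.2.2 and the mm9 build were used; the caller is named LiMACC, with no settings given in the sources used here. Each contact has a whole-number count for either population, deposited by the authors, and whether it sums or averages 2 libraries is not stated. The deposited score has the form of a −log10 p-value, adjusted or not, with a floor of 1.3 (p of 0.05) for the first batch and 2.0 for the second. FPKM values and 0 or 1 marks of bins, the latter in other units, were deposited by the authors without a description of their making. The small counts limit precision.

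Bins of Zfp423 were read with pandas 2.3.3 and classed by score above 0; Clopper-Pearson and exact ratio intervals (95%) came from scipy 1.17.1 and cover counting error only. Distances join middles of fragment and bin, and log2 ratios of calls use a pseudocount of 1. No test was made, as each population has 1 value. Scripts were tested on simulated data. The genes named are Zfp423, captured promoters within 2 Mb or sharing its bins, the 5 nearest by calls, the silent promoters with most fetal calls, a partner list and cell type markers. Members and lists were chosen with earlier results of these data known. Promoters named for the lowest or highest value of a measure were chosen after their values were seen. Alternatives covered score, count minimum, merging, matching distance, scaling and marks.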

Additional observations from a re-analysis of the deposited data

How the results depend on the processing

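Of 27 alternatives 13 moved a Zfp423 value past its tolerance, which was 1.5 times for a count of calls, bins or runs and the 95% counting interval for a ratio, share or distance, and 14 did not. Within that tolerance, merging touching bins still took the fetal calls from 57 to 39, and scaling took the bins with a fetal count at least 2 times the adult from 38 to 29. A score 1 unit above the floor left 19 fetal and 3 adult calls and a shared share of fetal calls of 0%. A minimum of 20 counts left 3 fetal and 0 adult calls. Shared calls were 31.6% of fetal calls with a match within 5 kb and 82.5% within 20 kb. The fetal runs numbered 25, 20 and 12 with gaps up to 2, 5 and 10 kb bridged. The count ratio was 1.53 scaled by batch totals, 1.55 scaled by totals within chromosomes and 1.06 over shared contacts only. The log2 ratio of calls stayed between 1.42 (touching bins merged) and 2.32 (stricter score), and the median fetal distance between 173 and 193 kb. The fetal excess of calls, for which Zfp423 was chosen, kept its direction under each alternative run. These alternatives filter, merge or rescale the same calls, so the kept direction is no separate support for the excess. Its size in counts depends on scaling and on the classes kept.

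No paired analysis was possible because each population has a single pooled value in its batch, and for the same reason leaving out each library in turn could not be run. Calls rest on few counts (a median of 10 fetal and 6 adult counts per bin), and 11 of 53 fetal-specific bins had a count ratio whose interval lay wholly above 1.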
